A study of Mus musculus with 22 samples.

Results

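A set of 10 genes of the Notch pathway and of the choice between intestinal lineages were followed in mouse duodenal organoids exposed to cold atmospheric plasma (CAP), a partly ionized helium gas that loads culture medium with reactive oxygen and nitrogen species. They were chosen by name, as the receptors Notch1 and Notch2, the ligands Dll1, Dll4 and Jag1, the glycosyltransferase Lfng, the target genes Hes1 and Nrarp, and Atoh1 and Hes6, which belong to the secretory lineage. These are 10 of the 52636 genes in the table the authors deposited, and all 10 passed the filter on low values in every comparison.

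Notch is a receptor that is cut when a ligand on a neighbouring cell binds it. The freed intracellular part joins the DNA-binding protein RBPJ and switches on targets such as Hes1, whose product represses Atoh1. In the crypt, cells that receive the signal stay progenitors or become absorptive enterocytes, and cells that carry the ligands and express Atoh1 become Paneth, goblet or enteroendocrine cells.

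The 22 RNA-seq libraries came from wild-type adult mice of the outbred CD1 strain. Each of 4 organoid lines was derived from 1 mouse, and the lines gave 4 untreated libraries. Treatment was applied to lines 1, 2 and 4, with 1 library per line in every one of 6 treated groups, so that all treated groups hold the same 3 mice and line 3 has an untreated library alone. All cultures, controls included, received EGF, Noggin, R-spondin 1 and N-acetyl cysteine, and Y-27632 at the start. In direct CAP the jet (50 W for 60 s) was held over the culture at day 1 and the medium was changed 30 min or 24 h later. Indirect CAP was medium taken from a treated culture, and PAM (plasma-activated medium) was medium treated without organoids, and both were given from day 1 or from day 2. For these 4 groups the study's methods give an exposure of 24 h, whereas the labels give 30 minutes for the groups named here as from day 1 and 24 hours for those from day 2. By the study's text, the groups from day 1 had newly made medium for 24 h and then untreated fresh medium until day 3. Those from day 2 had medium made at day 1, applied 24 h later and kept until day 3. Between the days, the start, the age of the medium and the time in fresh medium thus differ together and cannot be told apart. RNA is described as taken at day 3, but for the 30 min group the sources also speak of 30 min after the jet, so that its time of collection is uncertain. The labels put lines 1, 2 and 4 at passages 12, 14 and 4, the last of which differs from the study's text. The untreated library of line 4 has a longer name in the labels than the treated ones, and taking them as 1 line is an assumption.

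The deposited values are whole numbers whose sum is close to 20 M (M for mega) in each library. The study's legends describe the unit as also divided by transcript length, but the values go against this. The step that 1 read makes in the low values differed by at most 0.1% between all genes and each of 3 classes of exon length in 20 of 22 libraries (at most 2.51% in the other 2), although the medians of the shortest and the longest class were 0.796 and 6.67 kb. The values were therefore used as scaled read counts without length, and a value of 100 stands for about 100 reads. Depth was estimated at 19.4 to 28.7 M counted reads per library (median 22.5). The libraries were epithelial. In the untreated, Epcam, which encodes an epithelial adhesion protein, had 16504 ± 526 (SD, n = 4). The summed values of 6 mesenchymal markers were between 4 and 30 in all 22 libraries. The labels call the cells stem cells, and the sum of 7 stem cell markers was between 34763 and 41978 in the untreated but between 1196 and 3436 with PAM from day 2. In bulk RNA of this kind, fewer cells of a type and less RNA per cell cannot be told apart.

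The promoters of 3 members are shown first, picked by the groups that differed most from the untreated. There Lfng had the largest fall, Nrarp, a target of the pathway, was lower, and Jag1 alone rose past the threshold given below. Other members also lay lower or higher in these groups. RefSeq held windows for 9 of the 10 members, all but Hes1. Each sequence is the 250 bases before the RefSeq start on GRCm38.p6, read 5′ to 3′ on the strand of the gene. They are chr5:140607091-140607340 (plus strand) for Lfng, chr2:25180508-25180757 (plus strand) for Nrarp and chr2:137116521-137116770 (minus strand) for Jag1. Capitals mark GTGGGAA (the core bound by RBPJ), CACGTG (an E-box of the type bound by Hes and Hey proteins) and CAGCTG (an E-box of the type bound by proneural factors).
Lfng: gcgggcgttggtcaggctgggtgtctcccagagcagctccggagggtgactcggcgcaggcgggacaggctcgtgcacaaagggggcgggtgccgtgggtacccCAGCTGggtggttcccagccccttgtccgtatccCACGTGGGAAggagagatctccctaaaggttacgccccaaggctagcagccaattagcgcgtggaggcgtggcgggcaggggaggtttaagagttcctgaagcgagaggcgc
Nrarp: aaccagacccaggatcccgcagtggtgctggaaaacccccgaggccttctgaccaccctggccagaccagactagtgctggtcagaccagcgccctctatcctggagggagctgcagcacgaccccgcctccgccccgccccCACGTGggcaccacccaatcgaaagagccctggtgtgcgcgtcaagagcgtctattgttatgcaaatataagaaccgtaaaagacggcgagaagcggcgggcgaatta
Jag1: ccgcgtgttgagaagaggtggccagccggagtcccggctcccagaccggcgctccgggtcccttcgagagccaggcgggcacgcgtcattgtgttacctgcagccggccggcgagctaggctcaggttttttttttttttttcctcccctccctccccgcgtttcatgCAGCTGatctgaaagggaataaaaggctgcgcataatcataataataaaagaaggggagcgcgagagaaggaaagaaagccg
Of these 9 members, Lfng alone had the RBPJ core, which starts 109 bases before the start and overlaps CACGTG at 112 bases before it. Nrarp has CACGTG at 108 bases and Jag1 has CAGCTG at 82 bases before the start. CAGCTG was not particular to Jag1: Lfng has it at 146 bases before the start, and windows of Hes6 and Dll1 hold it too. In the 50 bases after the start, which are not printed, Lfng and Nrarp each have CAGCTG as well. On either strand of the 32851 mouse promoter windows of 300 bases (250 before and 50 after the start), the RBPJ core occurred in 6.38%, CACGTG in 7.15% and CAGCTG in 16.3%. TGACTCA, bound by AP-1, occurred in 5.20% of all windows and in none of the windows of the 9 members. These matches are descriptions of the letters only.

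To compare levels between genes, the values were divided by the exon length of the gene (GENCODE vM21 on GRCm38). In the untreated libraries Hes6 was the highest, at 929 ± 43.4 per kb (SD, n = 4), followed by Hes1 at 739 ± 39.9. Dll1 had 437 ± 35.0 and Nrarp 371 ± 65.8 per kb, with overlapping ranges. Jag1 had 245 ± 22.2, Atoh1 232 ± 47.4 and Notch1 194 ± 39.1 per kb, each overlapping its neighbour. Lfng (128 ± 23.4), Notch2 (119 ± 11.8) and Dll4 (109 ± 16.2) closed the order, again with overlapping ranges between neighbours. Thus, of the ligands among the members, Dll1 had the most RNA per length, and Notch1 exceeded Notch2.

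**Figure D1:**
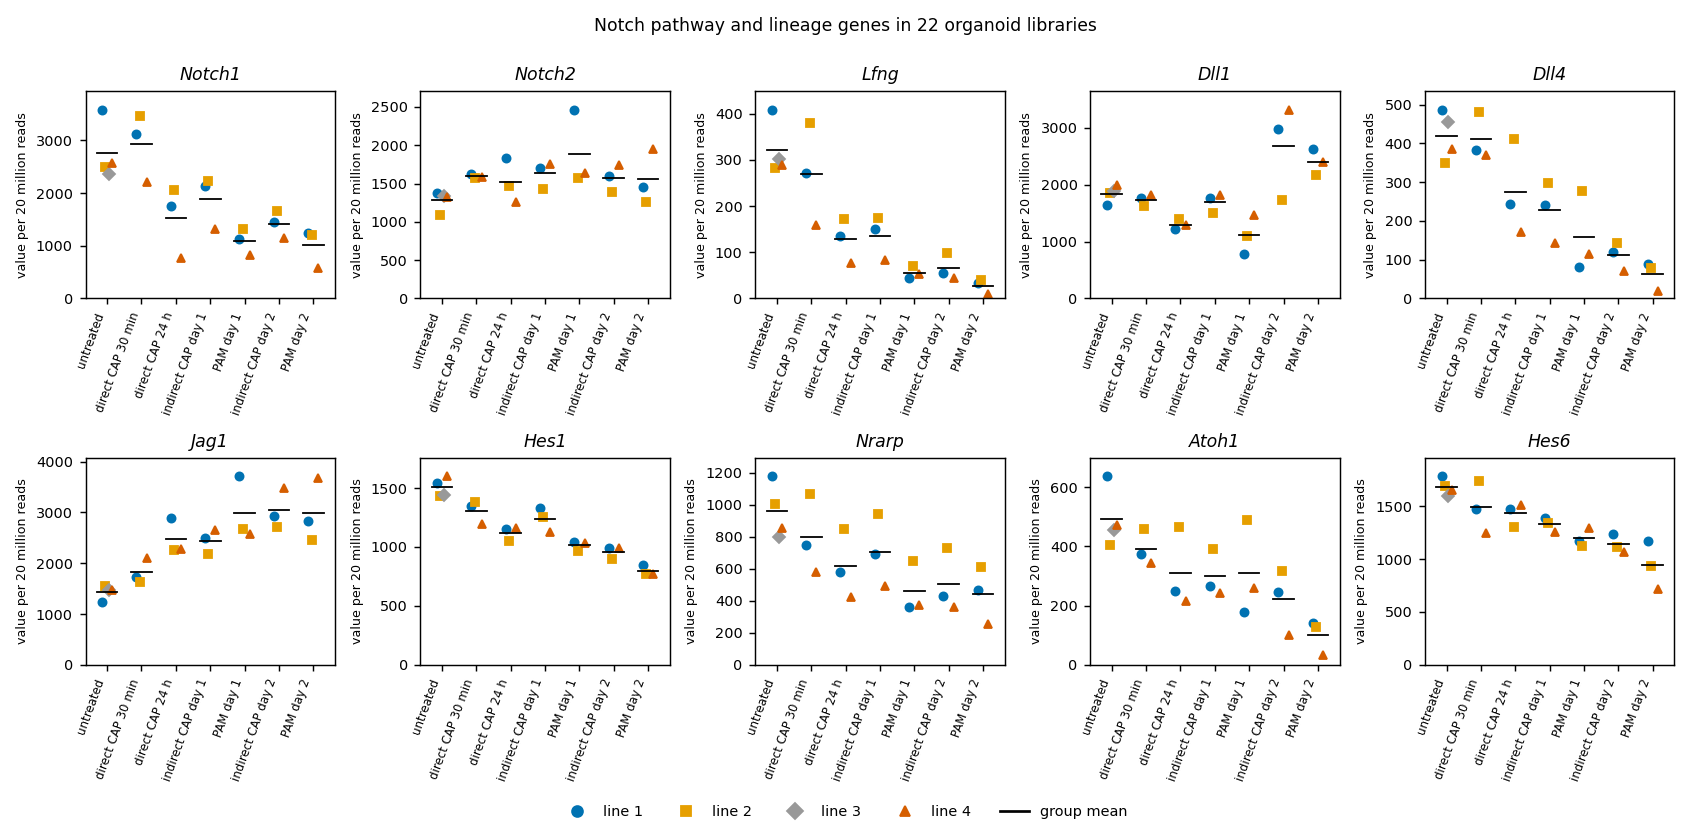
Value of each gene (reads per 20 M, linear axis from 0) in each of the 22 libraries by group. Symbols stand for organoid lines and bars for group means. Lfng lay between 283 and 408 in the untreated and between 10 and 39 with PAM from day 2, while Jag1 lay higher in all 6 treated groups than in the untreated.

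With PAM from day 2, the largest falls among the members were those of Lfng, Dll4 and Atoh1, and against the untreated Jag1 was the only member that rose in any of the 7 comparisons. A member is said to rise or fall where limma's moderated test gave an adjusted p (Benjamini-Hochberg, over all genes tested) under 0.01 and the log2 fold change, on the log2(value + 1) scale, was 1 or more either way. Where the 9 libraries of the 3 groups treated for 24 h from day 1 (direct CAP, indirect CAP and PAM) were set against the 4 untreated, 1 of 10 members fell and none rose. These 9 libraries are of 3 mice and were fitted as independent. The SE and p values of this comparison therefore do not allow for the shared mice. Of the 18490 genes tested there, 6.34% passed (2.07% lower and 4.27% higher). After 30 min of direct CAP 0 of 10 members passed, with 0.00564% of all genes. After 24 h of direct CAP 0 of 10 passed (2.17% of all genes), and with indirect CAP from day 1 0 of 10 passed (1.31%). By limma at an unadjusted p under 0.05, these 3 groups had 3, 9 and 8 members respectively, beside 24.9%, 32.6% and 38.6% of all genes. Under PAM from day 1, 4 members fell and 1 rose, where 10.2% of all genes passed (5.4% lower and 4.83% higher). Under indirect CAP from day 2, 2 fell and 1 rose (11.9% of all genes, 5.71% lower and 6.2% higher). Under PAM from day 2, 4 fell and 1 rose (17.3% of all genes, 10.5% lower and 6.82% higher). All 7 comparisons share the untreated libraries.

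Without a minimum fold change, an adjusted p under 0.05 was reached by 9 members with CAP for 24 h from day 1 (33.5% of all genes), 0 after 30 min of direct CAP (0.00564%), 4 after 24 h of direct CAP (17.3%) and 6 with indirect CAP from day 1 (20.6%). It was reached by 9 members with PAM from day 1 (41.8%), 8 with indirect CAP from day 2 (43.8%) and 9 with PAM from day 2 (47.6%). The treated libraries all lay on one side of the untreated for 5 members with CAP for 24 h from day 1 (17.7% of all genes), for 3 after 30 min (23.6%) and 6 after 24 h of direct CAP (30.7%), and for 8 with indirect CAP from day 1 (34.4%). They did so for 9 members with PAM from day 1 (46.8%), 9 with indirect CAP from day 2 (48.5%) and 9 with PAM from day 2 (53.4%). The median log2 fold change of the 10 members was -0.60 with CAP for 24 h from day 1, -0.77 with PAM from day 1, -0.80 with indirect CAP from day 2 and -1.05 with PAM from day 2. The medians over all genes tested in the same comparisons were -0.05, -0.13, -0.01 and -0.12. In the groups where no member passed, the members lay between -0.32 and 0.35 after 30 min of direct CAP. They lay between -1.38 and 0.78 after 24 h of direct CAP, and between -1.29 and 0.77 with indirect CAP from day 1. The medians over all genes were 0.02, -0.08 and 0.004 there.

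**Figure D2:**
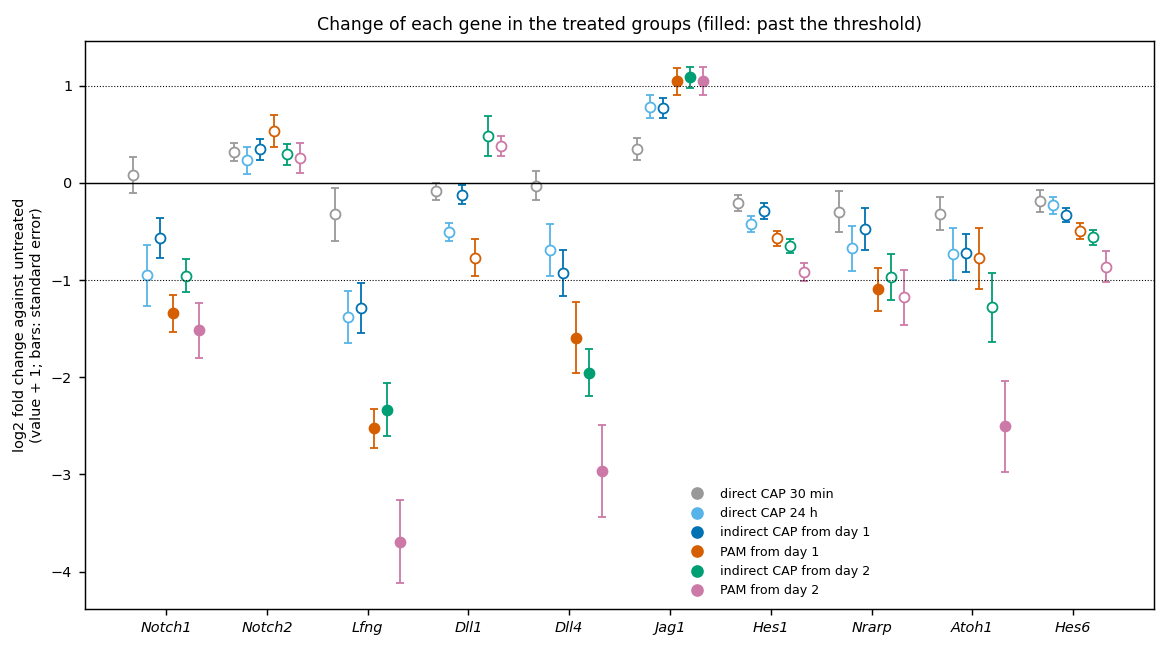
Log2 fold change of each gene against the untreated libraries on the log2(value + 1) scale, with its standard error, in 6 treated groups. Filled points passed the threshold, and dotted lines mark a log2 fold change of 1 either way. Lfng went from -0.32 after 30 min of direct CAP to -3.69 with PAM from day 2, and Jag1 was above 0 in all 6 groups.

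Lfng, which encodes a glycosyltransferase that adds a sugar to Notch and so tunes its response to the different ligands, lies on chromosome 5 (140607320 to 140615545, plus strand). In the untreated libraries its value was 408, 283, 303 and 290 in lines 1 to 4. After 30 min of direct CAP it was 271, 380 and 158 in lines 1, 2 and 4, which overlaps the untreated. After 24 h of direct CAP it was 135, 173 and 77, and with indirect CAP from day 1 it was 150, 174 and 83. All 6 of these libraries lay below all 4 untreated. With PAM from day 1 Lfng was 44, 70 and 52, with indirect CAP from day 2 it was 55, 99 and 44, and with PAM from day 2 it was 33, 39 and 10. Line 2 held the highest value of Lfng in every treated group.

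With CAP for 24 h from day 1, the value of Lfng went from 321 ± 58.6 (SD, n = 4) to 106 ± 51.6 (n = 9 libraries of 3 mice). Lfng was the only member that fell there, by 1.73 on the log2 scale (SE 0.35, adjusted p = 0.00232). It also fell with PAM from day 1 (log2 fold change -2.52, SE 0.20, adjusted p = 0.000125), indirect CAP from day 2 (-2.33, SE 0.27, adjusted p = 0.00036) and PAM from day 2 (-3.69, SE 0.42, adjusted p = 0.000523). Of the 17694 genes tested with PAM from day 2, 67 had a lower log2 fold change. After 24 h of direct CAP its log2 fold change was -1.38 (adjusted p = 0.0127) and with indirect CAP from day 1 -1.29 (adjusted p = 0.0143), which did not pass. Without the untreated library of line 1, its highest, the fall with CAP for 24 h from day 1 no longer passed (adjusted p = 0.0118), and the count of members went from 1 to 0.

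Of the ligands, Jag1 rose and Dll4 fell in the same 3 groups, and Dll1 did not pass the threshold in any comparison. Jag1 (chromosome 2, 137081456 to 137116644, minus strand) had 1244, 1544, 1464 and 1466 in the untreated lines 1 to 4. After direct CAP it was 1732, 1633 and 2105 in lines 1, 2 and 4 at 30 min and 2885, 2252 and 2277 at 24 h. With indirect CAP from day 1 it was 2496, 2174 and 2654. Every library of these groups was above every untreated library. Jag1 was 3712, 2670 and 2572 with PAM from day 1, 2923, 2714 and 3492 with indirect CAP from day 2, and 2839, 2467 and 3685 with PAM from day 2.

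Jag1 rose by a log2 fold change of 1.05 with PAM from day 1 (SE 0.14, adjusted p = 0.000819), 1.09 with indirect CAP from day 2 (SE 0.11, adjusted p = 0.000191) and 1.05 with PAM from day 2 (SE 0.15, adjusted p = 0.00105). These 3 values lie just above the minimum of 1. The call with PAM from day 1 was lost with lines as blocks (adjusted p = 0.0101) and without the line 1 library of either group, that with indirect CAP from day 2 without its line 4, and that with PAM from day 2 without untreated line 1 or its own line 4. In the fits without 1 library the log2 fold change was then between 0.88 and 0.99. With CAP for 24 h from day 1 the difference was 0.87 (SE 0.12, adjusted p = 0.000278), which is under that minimum. After 30 min of direct CAP it was 0.35 (adjusted p = 0.123), with all 3 libraries above the 4 untreated.

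Dll4, a ligand carried by secretory progenitors and by endothelium (chromosome 2, 119325784 to 119335962, plus strand), had 486, 350, 456 and 386 in the untreated lines 1 to 4. Direct CAP gave 382, 482 and 370 at 30 min and 244, 410 and 171 at 24 h in lines 1, 2 and 4, both overlapping the untreated. The conditioned media from day 1 gave 240, 299 and 144 (indirect CAP) and 82, 276 and 114 (PAM). All 6 of these libraries were below the untreated, and line 2 was the highest in each of the 4 groups. From day 2, Dll4 was 121, 143 and 70 under indirect CAP and 90, 79 and 20 under PAM.

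Dll4 fell with PAM from day 1 (log2 fold change -1.59, SE 0.36, adjusted p = 0.00869), indirect CAP from day 2 (-1.95, SE 0.24, adjusted p = 0.000475) and PAM from day 2 (-2.96, SE 0.47, adjusted p = 0.00178). The call with PAM from day 1 was lost in 6 of the 7 fits that leave out 1 library, all but that without PAM line 2, and in the fit with lines as blocks (adjusted p = 0.0368). It was also lost with quantile normalization, without the filter and with all 7 groups in one fit without the block. The summed value of 4 endothelial markers, cells that also carry Dll4, was between 12 and 33 in the untreated and between 22 and 53 with PAM from day 2. Their part in the values of Dll4 was not tested.

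Dll1, the member ligand with the most RNA per length in the untreated (chromosome 17, 15367354 to 15376872, minus strand), lay below the untreated in the PAM libraries from day 1 and above them in those from day 2. It had 1640, 1849, 1899 and 1988 in the untreated lines 1 to 4 and 1764, 1624 and 1824 after 30 min of direct CAP in lines 1, 2 and 4. With the treatments from day 1 it was 1213, 1392 and 1289 after direct CAP, 779, 1102 and 1463 under PAM and 1763, 1500 and 1823 under indirect CAP. The PAM and direct CAP libraries were all below the untreated, and those of indirect CAP overlapped them. From day 2 it was 2988, 1727 and 3315 with indirect CAP, where line 2 alone stayed within the untreated range, and 2636, 2180 and 2393 with PAM, all above the untreated.

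Against the untreated, the log2 fold change of Dll1 was -0.77 with PAM from day 1 (SE 0.19, adjusted p = 0.0122) and 0.38 with PAM from day 2 (SE 0.10, adjusted p = 0.0178). In the direct comparison of the PAM groups, which shares no control, it was 1.15 higher from day 2 than from day 1 (SE 0.23, 95% interval 0.61 to 1.69, adjusted p = 0.0594), which did not pass. For indirect CAP the difference between the days was 0.61 (SE 0.24, adjusted p = 0.201). Of the exon bases of Dll1, 20.5% overlap A930024N18Rik on the other strand, and the strand of the reads is not given in the sources used here, so that reads of this stretch cannot be told apart.

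As a share of the 3 ligands, computed per kb of exon, Jag1 made up 31.0% ± 1.71 (SD, n = 4) of the sum in the untreated, Dll1 55.2% ± 1.60 and Dll4 13.8% ± 2.65. The ligands Jag2 and Dll3, which are not members, were left out of this sum. Jag1 made up 52.8% ± 5.78 after 24 h of direct CAP, and the media from day 1 gave 62.5% ± 11.5 (PAM) and 47.6% ± 1.53 (indirect CAP, n = 3 each). With PAM from day 1 it reached 75.6% in line 1, and Dll1 was down to 21.9% there. From day 2 the share of Jag1 was 44.7% ± 5.60 under indirect CAP and 46.5% ± 5.23 under PAM, where Dll4 had gone to 1.54% ± 0.96. The share of Jag1 was above the untreated range in every treated library of the 6 groups. For 3 against 4 libraries the two-sided exact permutation test cannot give a p below 0.0571, which each of these 6 comparisons reached (0.0722 adjusted over 24 comparisons of shares).

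**Figure D3:**
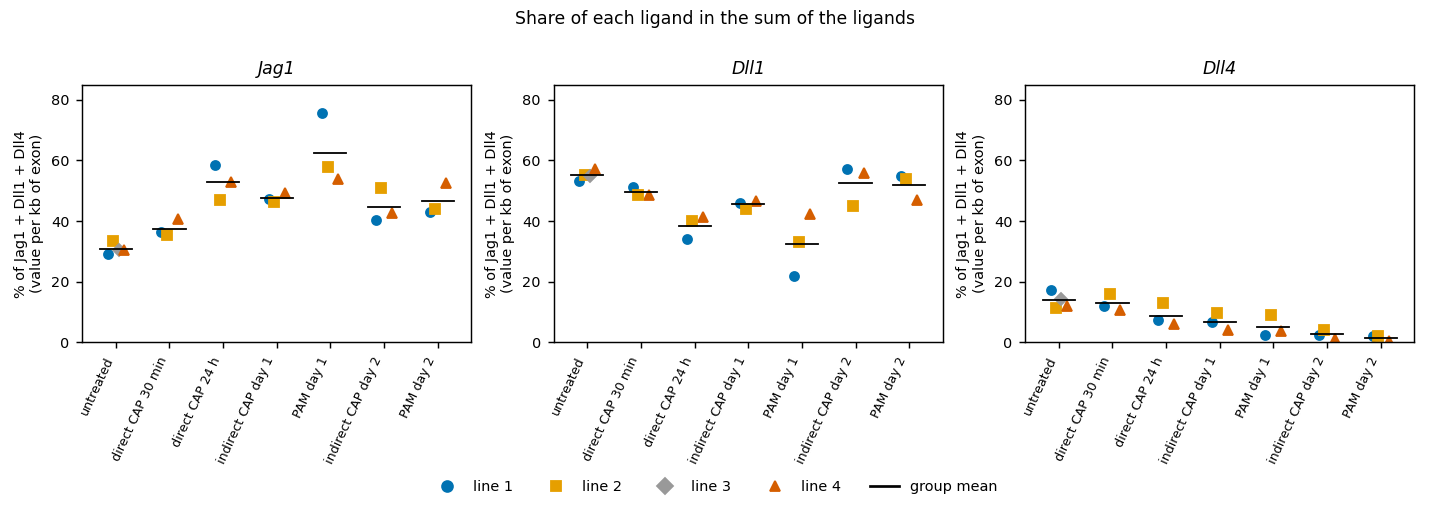
Share of Jag1, Dll1 and Dll4 in the sum of these ligands, each value divided by exon length, in % for every library. Symbols stand for organoid lines and bars for group means. Jag1 went from a mean of 31.0% in the untreated to 62.5% with PAM from day 1, and Dll4 from 13.8% to 1.54% with PAM from day 2.

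Of the receptors, Notch1 fell in the PAM groups and Notch2 did not pass in any comparison. Notch1, the main receptor of crypt stem cells (chromosome 2, 26457903 to 26516663, minus strand), had 3579, 2496, 2367 and 2577 in the untreated lines 1 to 4. At 30 min, direct CAP gave 3126, 3460 and 2213 in lines 1, 2 and 4, of which only the last lay outside the untreated range, below it. At 24 h, direct CAP gave 1749, 2063 and 772, and indirect CAP 2127, 2224 and 1318 from day 1 and 1448, 1663 and 1144 from day 2. All 9 of these libraries lay below the untreated. PAM gave 1138, 1319 and 820 from day 1 and 1249, 1202 and 570 from day 2. Line 4 was the lowest in each treated group.

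Notch1 fell with PAM from day 1 (log2 fold change -1.34, SE 0.19, adjusted p = 0.00106) and from day 2 (-1.52, SE 0.28, adjusted p = 0.00342). The second of these was lost without the untreated library of line 1 (adjusted p = 0.0106), of line 2 (0.0102) or of line 4 (0.0101). With CAP for 24 h from day 1 its log2 fold change was -0.95 (adjusted p = 0.0153), and with the replicate block, -1.02 (adjusted p = 0.00808), past the threshold. Notch2, the second receptor of the intestinal epithelium (chromosome 3, 98013527 to 98150361, plus strand), lay between 1094 and 1378 in the untreated and between 1263 and 2460 in the treated libraries. Its log2 fold change was above 0 in all 6 groups, between 0.23 and 0.54, and the largest was that with PAM from day 1 (SE 0.16, adjusted p = 0.0289). For PAM from day 2 it was 0.26 (95% interval -0.11 to 0.62, adjusted p = 0.208).

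Per kb of exon, Notch1 made up 61.7% ± 3.97 of the sum of both receptors in the untreated, 30.8% ± 7.05 with PAM from day 1 and 33.2% ± 13.1 with PAM from day 2. After 30 min of direct CAP it was 57.7% ± 5.74, which overlaps the untreated.

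Of the targets, Nrarp fell in 1 comparison and Hes1 in none. Hes1, the repressor through which Notch holds back Atoh1 (chromosome 16, 30064384 to 30067796, plus strand), varied little between lines, with 1546, 1430, 1444 and 1599 in the untreated. Direct CAP gave 1344, 1378 and 1193 in lines 1, 2 and 4 at 30 min and 1152, 1053 and 1160 at 24 h, and indirect CAP from day 1 gave 1331, 1250 and 1125. It was 1041, 967 and 1036 under PAM from day 1, 987, 901 and 990 under indirect CAP from day 2, and 849, 767 and 774 under PAM from day 2. No library of the 6 treated groups reached the lowest untreated value. For none of these groups was the log2 fold change as large as 1. It was -0.43 with CAP for 24 h from day 1 (SE 0.08, adjusted p = 0.00216), -0.65 with indirect CAP from day 2 (SE 0.08, adjusted p = 0.000369) and -0.92 with PAM from day 2 (SE 0.09, 95% interval -1.12 to -0.71, adjusted p = 0.000374).

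Nrarp, a target whose product dampens Notch (chromosome 2, 25180758 to 25183339, plus strand), had 1176, 1003, 797 and 852 in the untreated lines 1 to 4. Under PAM it was 359, 645 and 376 from day 1 and 466, 613 and 255 from day 2 in lines 1, 2 and 4. These 6 libraries were below the untreated, while line 2 stayed within or above the lower untreated values after 30 min of direct CAP (1063), 24 h of direct CAP (850) and indirect CAP from day 1 (938). Nrarp fell by 1.09 on the log2 scale with PAM from day 1 (SE 0.22, adjusted p = 0.0052), a call lost in 5 of the 7 fits that leave out 1 library, and with the replicate block (adjusted p = 0.0121). Quantile normalization, and all 7 groups in one fit without the block, also removed this call. From day 2 the log2 fold change under PAM was -1.18 (adjusted p = 0.0104), and with the block -1.26 (adjusted p = 0.00829). The antisense gene Gm38287 overlaps 79.4% of the exon bases of Nrarp, its value was between 0.798 and 0.854 times that of Nrarp in all 22 libraries, and without strand the reads of the pair cannot be told apart. The value of Nrarp is therefore uncertain.

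Of the other targets fixed as a list, Hey1, Hey2 and Heyl were at or near 0 in the untreated (1.25, 0.0 and 0.5 on average) and were not tested. Hes5 had 18.3 ± 5.5 in the untreated and 6.0 ± 5.0 with PAM from day 2. Hes1 and Nrarp thus carried nearly all of the summed value of this list.

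Of the secretory members, Atoh1 fell in 1 comparison and Hes6 in none. Atoh1, the factor that commits cells to the secretory lineage (chromosome 6, 64729125 to 64731245, plus strand), had 637, 406, 454 and 471 in the untreated lines 1 to 4. At 24 h, direct CAP gave 248, 467 and 215 in lines 1, 2 and 4, and the media from day 1 gave 268, 390 and 243 (indirect CAP) and 177, 489 and 261 (PAM). Line 2 was within or close to the untreated range in these 3 groups, while lines 1 and 4 were below it. From day 2, Atoh1 was 141, 129 and 33 under PAM and 247, 317 and 101 under indirect CAP. Atoh1 fell by 2.5 on the log2 scale with PAM from day 2 (SE 0.47, adjusted p = 0.00357), a call that was lost without the untreated library of line 1 (adjusted p = 0.0125), line 2 (0.0102) or line 4 (0.0110). It did not pass with PAM from day 1 (-0.78, adjusted p = 0.0788) or with indirect CAP from day 2 (-1.28, adjusted p = 0.0196).

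Hes6, a relative of Hes1 found in secretory precursors (chromosome 1, 91411483 to 91414038, minus strand), had 1784, 1688, 1598 and 1651 in the untreated lines 1 to 4. It had 1175, 937 and 713 with PAM from day 2 in lines 1, 2 and 4, and between 1068 and 1240 with indirect CAP from day 2, all below the untreated. Its log2 fold change was -0.86 with PAM from day 2 (SE 0.16, adjusted p = 0.00331) and -0.35 with CAP for 24 h from day 1 (SE 0.08, adjusted p = 0.00539), both under the minimum.

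Of 13 regulators of the secretory lineages, Atoh1 and Hes6 among them, 2 fell with CAP for 24 h from day 1 (2.07% of all genes). After direct CAP, 0 fell at 30 min (0.0% of all genes) and 1 at 24 h (0.917%), and 0 fell with indirect CAP from day 1 (0.477%). The counts were 5 with PAM from day 1 (5.4% of all genes), 3 with indirect CAP from day 2 (5.71%) and 8 with PAM from day 2 (10.5%). None of the 13 rose in any of the 7 comparisons. By limma at an adjusted p under 0.05, 5 were lower at 24 h of direct CAP, 5 with indirect CAP from day 1 and 0 at 30 min. In either direction, 17.3%, 20.6% and 0.00564% of all genes reached this in the same groups. The median log2 fold change of the list was -0.74 with CAP for 24 h from day 1 and -1.82 with PAM from day 2, beside -0.05 and -0.12 over all genes. With PAM from day 2, Neurog3, which starts the enteroendocrine programme, went from 356 ± 35.5 (SD, n = 4) to between 9 and 99 and fell by 3.09 (SE 0.70, adjusted p = 0.00794). Sox4, a factor of secretory progenitors, went from 4981 ± 1096 to 710 ± 240 and fell by 2.85 (SE 0.26, adjusted p = 0.000338), and with CAP for 24 h from day 1 it fell by 1.57 (SE 0.32, adjusted p = 0.00237). Gfi1, which acts after Atoh1 in goblet and Paneth precursors, fell with PAM from day 2 (log2 fold change -2.51, SE 0.31, adjusted p = 0.000682) and with CAP for 24 h from day 1 (-1.24, SE 0.31, adjusted p = 0.00796).

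Marker genes of the mature secretory cells did not all move with these regulators. Of all genes, 2.07% fell and 4.27% rose with CAP for 24 h from day 1. With PAM from day 2, 10.5% of all genes fell and 6.82% rose. With CAP for 24 h from day 1, 3 of 7 Paneth markers fell (Defa17, Itln1 and Defa24) and none rose, 1 of 7 goblet markers rose (Clca1, by a log2 fold change of 1.51, SE 0.37, adjusted p = 0.00702) and none fell, and 2 of 3 tuft markers tested rose (Ptgs1 by 2.82 and Avil by 2.58). Of 8 enteroendocrine and 10 enterocyte markers, none passed. With PAM from day 2, 2 of 7 goblet markers fell (Fcgbp with -1.64 and Zg16 with -1.30), 1 of 7 Paneth markers fell (Itln1 with -1.90), 1 of 8 enteroendocrine markers rose (Tph1 by 1.80), the same 2 of 3 tuft markers rose, and 1 of 10 enterocyte markers rose (Alpi, an enzyme of the brush border, by 1.42). The stem cell markers were lower in both, with 5 of 7 past the threshold with CAP for 24 h from day 1 and 6 of 7 with PAM from day 2, where Lgr5 fell by 5.87 (SE 0.70, adjusted p = 0.000587) and Olfm4, itself known as a Notch target in the crypt, with -5.78 (SE 0.42, adjusted p = 0.000288). All 8 proliferation markers fell with PAM from day 2. With CAP for 24 h from day 1 their log2 fold changes were between -0.75 and -0.47. There 7 of 8 had an adjusted p under 0.05 (33.5% of all genes, in either direction) and none was past the threshold. The part of these shifts in proliferation, stem and secretory markers in the values of the 10 members was not tested.

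The rest of the pathway was listed by step. Of all genes, 6.34% passed with CAP for 24 h from day 1 and 17.3% with PAM from day 2. Of the 4 receptors, Notch3 rose with CAP for 24 h from day 1 by a log2 fold change of 1.26 (SE 0.28, adjusted p = 0.004) and had -0.06 with PAM from day 2 (adjusted p = 0.914). Of the 5 ligands, Dll3 fell by 2.64 with CAP for 24 h from day 1 (SE 0.54, adjusted p = 0.00262) from 20.8 ± 9.43 to 2.78 ± 1.92, levels near the filter. Of 15 genes that process or glycosylate the receptor, Lfng alone passed in both of these comparisons, and Adam10, the protease that makes the first cut after ligand binding, had -0.05 with PAM from day 2 (adjusted p = 0.771). Of 12 genes tested that handle the ligand or degrade the receptor, 0 passed with CAP for 24 h from day 1. An adjusted p under 0.05 was reached there by 5 of them, beside 33.5% of all genes. Of 11 tested with PAM from day 2, Dtx4 fell by 1.11 (SE 0.10, adjusted p = 0.000333). Of 10 nuclear partners, the coactivator Maml2 rose in both, by 1.99 (SE 0.27, adjusted p = 0.000258) and 1.91 (SE 0.27, adjusted p = 0.00105), from 73.0 ± 23.6 in the untreated to 300 ± 110 and 269 ± 45.2. Rbpj, which binds the core motif above, had -0.69 with PAM from day 2 (SE 0.14, adjusted p = 0.00523), under the minimum.

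Between the treated groups, 0 of 10 members passed in each of 5 comparisons (24 h against 30 min of direct CAP, day 2 against day 1 for indirect CAP and for PAM, and PAM against indirect CAP from either day). By limma at an unadjusted p under 0.05 the counts of members were 4, 6, 3, 4 and 2 respectively, beside 21.4%, 21.7%, 26.8%, 21.7% and 9.48% of all genes. Of all genes, 0.0% passed in 4 of these comparisons and 0.0111% in that of indirect CAP. PAM against indirect CAP gave a log2 fold change for Lfng of -1.24 from day 1 (95% interval -2.0 to -0.48, adjusted p = 0.165) and -1.36 from day 2 (95% interval -2.68 to -0.03, adjusted p = 0.526). When each line was a replicate block, which here pairs treated libraries of 1 mouse, Notch1 passed between 24 h and 30 min of direct CAP (-1.03, SE 0.16, adjusted p = 0.00992), and Dll4 (-1.02, SE 0.13, adjusted p = 0.000475) and Lfng (-1.05, SE 0.18, adjusted p = 0.00248) passed between day 2 and day 1 of indirect CAP. The last 2 were not past the threshold with all 7 groups in one fit and the same block (adjusted p = 0.0835 and 0.0269).

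Within lines, each treated library was also set against the untreated library with the same line label. With PAM from day 2, the log2 difference of Lfng was -3.59 in line 1, -2.83 in line 2 and -4.73 in line 4, and that of Dll4 was -2.42, -2.13 and -4.20. Line 4 was the farthest from its own control for 9 of 10 members in this group, and line 1 for 9 of 10 with PAM from day 1. In both PAM groups, line 2 was the farthest for 0 of 10. Untreated line 1 and untreated line 2 are in doubt as to their line label, because after removal of group means they correlated more with treated libraries of the other line (median r 0.525) than with those of their own (0.237), while line 4 had 0.761 with its own.

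Without the untreated libraries of lines 1 and 2, removed because of that doubt after the data were seen, 1 member (Lfng) passed with PAM from day 1, 3 with indirect CAP from day 2 and 0 with CAP for 24 h from day 1 and with PAM from day 2. Of all genes, 866, 1057, 148 and 1 passed in these fits with 2 controls. The log2 fold change of Lfng with PAM from day 2 was then -3.59 (adjusted p = 0.0147).

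The genes most like 3 of the members over the 22 libraries, among 11803 genes with a mean value of at least 100, were listed as a description. All libraries share the treatment groups and the lines. Hes1 was nearest to Gm26765 (Pearson r 0.985), Nup107 (0.978), which encodes a nuclear pore protein, and Ubr7 (0.976). Atoh1 was nearest to Hepacam2 (0.974), a gene of secretory cells, Pdxk (0.964) and AC160411.2 (0.957). Nrarp was nearest to its antisense partner Gm38287 (0.999), then to Ccnjl (0.963) and Larp4 (0.959).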

How the data were processed

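RNA was sequenced as paired-end reads of 100 bases. Per the submitters' processing notes, reads were trimmed with Trimmomatic 0.36, aligned with STAR 2.5.3a to GRCm38 and counted with HTSeq 0.9.1. The deposited values are a score made by the authors, called CP20M, defined in the study's legends per transcript length but found here to behave as read counts brought to 20 M per library, rounded up and free of length (sums 20007540 to 20016513). Being scaled, they were tested as log2(value + 1) with limma 3.58.1 (R 4.3.3, trended moderated test) over genes with a value of at least 10 in 3 or more fitted libraries, in fits of only the groups compared. On simulated data, 200 of 200 changed genes were recovered in each of 3 designs. Whether a log2 fold change near the minimum of 1 would be recovered for the members was not tested. Recovery where libraries share mice, as those treated for 24 h from day 1 do, was not tested either. Depth was estimated from the spacing of low values (error at most 0.966% in simulation), and at a value of 10 counting error alone is large. Genes were matched to GENCODE vM21 by identifier (99.6%). Figures were drawn with Python 3.11.15 and matplotlib 3.10.9.

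The 10 members were named in every comparison, and from the other lists those past the threshold with CAP for 24 h from day 1 or PAM from day 2, at most 4 per list (others named were chosen after their values were seen). The members and lists were chosen with earlier results of these data known. Same-numbered libraries carry the label of the same organoid line, hence 1 mouse (for line 4 an assumption, and for untreated lines 1 and 2 in doubt). The correlation of their deviations from group means exceeded 0.1 in 61 of 63 pairs (median 0.684), and in 45 of 45 pairs of treated libraries (median 0.742). The line is therefore a replicate block in an alternative. No 2 replicates were copies of each other (24 pairs). Each group has 3 or 4 mice, and the pooled 9 libraries treated for 24 h from day 1 are of 3 mice, which limits precision. Alternatives were no filter, a pseudocount of 10, the block, quantile normalization, one fit over all 7 groups, a looser threshold and leaving out each library. All 7 groups in one fit with the block, and removal of the untreated libraries of lines 1 and 2, were added after the data were seen.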

Additional observations from a re-analysis of the deposited data

Results flagged for a closer look

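Lfng in the untreated libraries had 1 library apart from the others, that of line 1 at 408, with the other 3 between 283 and 303. Its gap to the nearest value was 0.84 of the range, above Dixon's critical value for 4 samples. The 10 members were each checked in this way, and chance marks about 1 in 20 groups.

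Dll1 differed between the PAM groups, with a log2 fold change of 1.15 from day 2 against day 1. These groups differ in start, in age of the medium and in time in fresh medium together. All 3 libraries of PAM from day 1 lay below, and all 3 of PAM from day 2 above, the untreated. The limma test of this difference gave an adjusted p of 0.0594, and it passed the threshold with all 7 groups in one fit, both without a replicate block and with one (adjusted p = 0.000271), but not in the fit of the 2 groups with the block (adjusted p = 0.0381), with quantile normalization, with a pseudocount of 10 or without the filter.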

How the results depend on the processing

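With CAP for 24 h from day 1, the count of members past the threshold was 1, and 2 with the replicate block, 2 with all 7 groups in one fit and the block, 9 at an adjusted p under 0.05, 0 without the untreated libraries of lines 1 and 2, and 0 to 2 on leaving out 1 library. The lowest was without the untreated library of line 1, and the highest without direct CAP for 24 h line 2 (Dll4 added) or indirect CAP line 1 or line 2 (Notch1 added). Direct CAP for 24 h had 0, then 4 at an adjusted p under 0.05, 2 with all groups and the block, and 0 to 1 on leaving out 1 library (Lfng passed without its line 2). Indirect CAP from day 1 had 0, then 6 and 1 in the same 2 alternatives, and 0 on leaving out any library. PAM from day 1 had 5, but 3 with quantile normalization or all groups in one fit, 2 with the block, 9 at an adjusted p under 0.05, 1 without the untreated libraries of lines 1 and 2, and 2 to 6 on leaving out 1 library, with 2 without the line 1 library of either group. Indirect CAP from day 2 had 3, but 8 at an adjusted p under 0.05, 6 with all groups and the block, and 2 to 6 on leaving out 1 library (2 without its line 4 and 6 without its line 2). PAM from day 2 had 5, but 9 at an adjusted p under 0.05, 0 without the untreated libraries of lines 1 and 2, and 2 to 6 on leaving out 1 library, with 2 without untreated line 1 and 3 without untreated line 2 or 4. The count of 0 became 1 with the block, and with all groups and the block, for direct CAP 24 h against 30 min, 2 with the block for indirect CAP between the days, and 1 with all groups in one fit and 4 with the block added (Dll1, Dll4, Atoh1 and Lfng) for PAM between the days. The block changed the members called in the comparisons named, added Notch1 with indirect CAP from day 2 (adjusted p = 0.00605) and Nrarp with PAM from day 2, and in no comparison did a fold change past the threshold turn its direction. On leaving out 1 library, 81 of the fold changes stayed past the threshold and 23 did not, and in the other alternatives 80 did and 18 did not. The cause was not tested, except that removing libraries leaves fewer samples. Quantile normalization moved the median of all genes with PAM from day 2 from -0.12 to 0.00027 on the log2 scale, without changing the 5 members called. Values of genes near the filter, such as Dll3, carry a large counting error.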
